A study of Homo sapiens with 9 samples.

Results

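YY1 binding was examined at the promoters of the genes that attach ubiquitin to proteins, choose the substrates of one large ligase class, or take ubiquitin off again. The members were all YY1 peaks whose distance to the transcription start site (TSS) was at most 2000 bp and whose gene symbol began with UBE2, UBE3, FBXL, FBXO, FBXW or USP followed by the rest of a family name. This rule took 149 of 23002 peaks and of 15384 promoter peaks, under 131 gene symbols. They comprised 35 UBE2 peaks (33 symbols), 5 UBE3 peaks (4 symbols), 18 FBXL peaks (15 symbols), 32 FBXO peaks (27 symbols), 9 FBXW peaks (7 symbols) and 50 USP peaks (45 symbols). In the RefSeq annotation 117 of the symbols were coding genes, with 134 peaks, and the other 14 were antisense, divergent, readthrough or pseudogene symbols, with 15 peaks. USP6NL carries the USP prefix but is known as a GTPase-activating protein for RAB proteins, and it was counted under USP because the rule took it.

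The libraries came from SK-N-MC cells, labelled as a wild-type human neuroblastoma line and known to carry the EWSR1-FLI1 fusion. The cells were transfected by lipofection with a plasmid for residues 1 to 550 of huntingtin (Htt) carrying 23 glutamines (HttQ23, unexpanded) or 89 glutamines (HttQ89, expanded), so the endogenous gene was present in both groups. The study names both constructs as EGFP fusions with the glutamines coded by CAG repeats. Each group had 3 YY1 libraries, which the study describes as independent biological replicates, and values are normalised read counts per peak of 401 bp. The study asked whether YY1 function is disturbed in cells that express expanded Htt.

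Ubiquitin passes from an activating enzyme (E1) to a conjugating enzyme (E2, the UBE2 family) and then, with the help of a ligase (E3), to a substrate. HECT ligases such as the UBE3 proteins take ubiquitin onto themselves first, whereas F-box proteins (FBXL with leucine-rich repeats, FBXW with WD40 repeats, FBXO with other domains) bring substrates to the cullin-based SCF ligase. Ubiquitin-specific proteases (USP) remove ubiquitin. The pathway supplies the proteasome and is known for marking the polyglutamine aggregates of Huntington's disease, and YY1 is a zinc finger factor that binds many promoters near the TSS.

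YY1 is known to bind sequences with the core ATGGCG, often within the longer form AAGATGGCG, and many of the strong member peaks carried such cores. The sites below were chosen after the values were seen, from the stronger core-containing peaks of each family, to show both forms. Each is read 5′ to 3′ from the GRCh38 sequence on the strand named, with the core in capitals:
UBE2G1, chr17:4366767-4366792, minus strand: ccttcccaaaATGGCGgcggacggga
UBE2G1, chr17:4366832-4366857, minus strand: cctctttgtcATGGCGtccgcggggc
UBE2L3, chr22:21567735-21567760, plus strand: caaatccaagATGGCGgccagcagga
UBE3C, chr7:157138777-157138802, plus strand: cgtgccgtcaATGGCGgaggcgcgca
UBE3C, chr7:157138935-157138960, minus strand: gggagggaagATGGCGgtcagccgtc
UBE3B, chr12:109477641-109477666, plus strand: gcggggcaagATGGCGgtagtgcgtc
UBE3A, chr15:25439247-25439272, minus strand: cagtcgcaagATGGCGaccgagcctg
FBXL18, chr7:5513851-5513876, minus strand: cacattcaacATGGCGgccgcctagg
FBXL19, chr16:30922631-30922656, minus strand: tacgaaaaagATGGCGacctcgcccc
FBXL19, chr16:30922728-30922753, minus strand: accggcaaagATGGCGgctgcagggc
FBXO31, chr16:87392222-87392247, plus strand: cacgcccgtcATGGCGgcggccccgg
FBXO21, chr12:117190441-117190466, minus strand: cgcggacaagATGGCGgcggcagcag
FBXO28, chr1:224114120-224114145, plus strand: agcccccaagATGGCGgcagcggcgg
FBXW11, chr5:172006491-172006516, plus strand: gtcgggctccATGGCGgccccggcgg
USP31, chr16:23149515-23149540, minus strand: cacagtgaacATGGCGgccgaggcgg
USP24, chr1:55215338-55215363, minus strand: ggaggccaacATGGCGgcgcgcaggg
USP21, chr1:161159514-161159539, plus strand: accaacaaagATGGCGgcggcccctg

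The longer form stood in the UBE2L3, UBE3B, UBE3A, FBXO21, FBXO28 and USP21 sites, in both FBXL19 sites and in the second UBE3C site. The other sites shown shared the core but differed in the bases before it. At UBE2G1 both cores lay upstream of the TSS, by 105 and 170 bp, on the strand of the gene. At USP24 the core lay 13 bp downstream of the TSS, and at FBXO31 it lay 128 bp upstream of the TSS on the other strand. UBE2J2 and UBE2V1, also among the strongest members, and FBXW5 and FBXW4, the 2 strongest of the FBXW family, held no ATGGCG on either strand of the peak.

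YY1 signal at these promoters was above the usual promoter level. The mean over the 6 libraries had a median of 102 normalised counts over the 149 peaks, against 61.2 over all promoter peaks. Of the members, 99 (66.4%) lay above the median promoter peak and 40 (26.8%) lay in the strongest 10% of promoter peaks. The order of the family medians was UBE3 (152), UBE2 (145), FBXL (118), USP (103), FBXO (55.3) and FBXW (54.7). Within each family single peaks spread over more than a factor of 10, so the families overlapped widely. In the UBE2 family 27 of 35 peaks lay above the promoter median and in the USP family 38 of 50, compared with 15 of 32 FBXO and 4 of 9 FBXW peaks. These counts describe one annotated table, and no test was run between families.

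**Figure D1:**
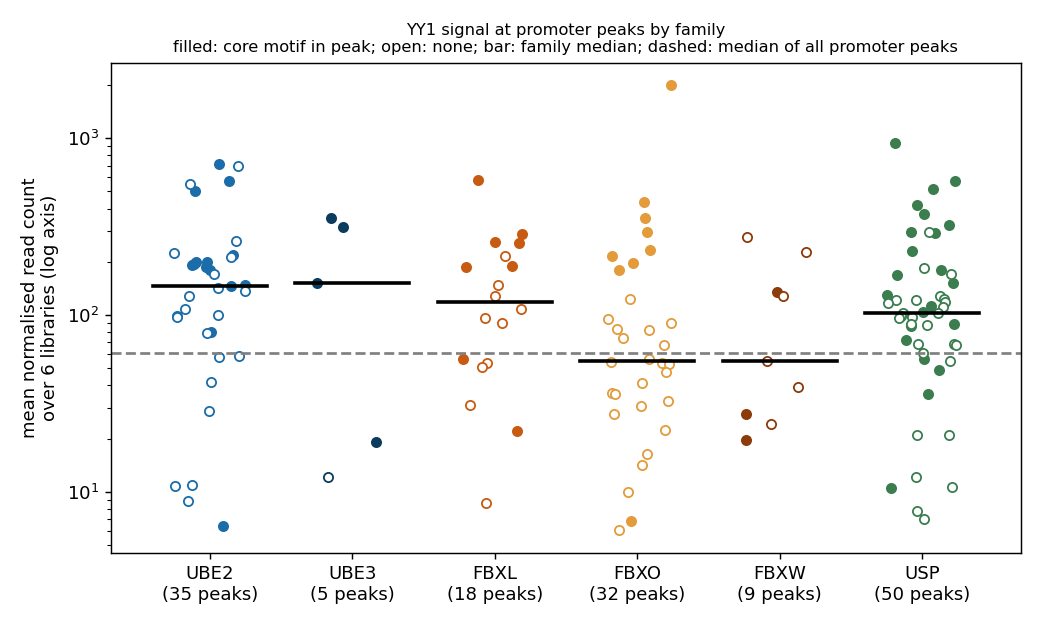
Mean normalised read count over 6 libraries (log axis) of each of the 149 promoter peaks, by family; filled points hold the core motif and open points do not, bars are family medians and the dashed line is the median of all promoter peaks (61.2). The UBE2, UBE3, FBXL and USP medians (145, 152, 118 and 103) lie above the dashed line, and FBXO31 (1997) lies above every other member.

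The core ATGGCG was searched on both strands of each peak, and its longer form always contains it. It was found in 60 of the 149 members (40.3%), compared with 27.0% of all promoter peaks, and the longer form in 14 (9.40%), compared with 4.22%. By family the core was present in 4 of 5 UBE3, 8 of 18 FBXL, 22 of 50 USP, 14 of 35 UBE2, 3 of 9 FBXW and 9 of 32 FBXO peaks. Members with the core had a median signal of 191 normalised counts and members without it 79.4, and the 14 with the longer form had a median of 305. The order was the same over all promoter peaks, with medians of 83.5, 55.6 and 193. Among the 40 members in the strongest 10% of promoters, 31 (77.5%) held the core, beside 59.6% of all promoter peaks of that strength.

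The 60 peaks held 67 cores. Of these, 41 (61.2%) lay downstream of the TSS and 27 (40.3%) lay 1 to 100 bp downstream, whereas the shares over all promoter peaks were 68.9% and 33.3%. The core was on the strand of the gene at 39 sites (58.2%, and 56.4% over all promoter peaks). The median distance from the peak centre was 60 bp in the members and 77 bp over all promoter peaks. A match of letters is a description and does not show a bound site.

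**Figure D2:**
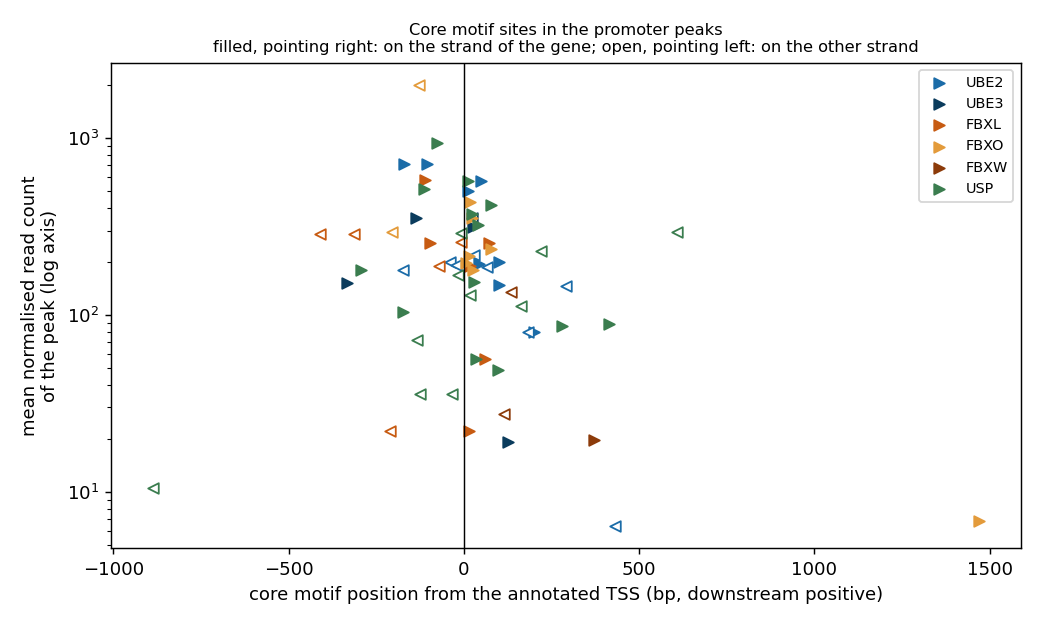
Position of each of the 67 cores relative to the annotated TSS (bp, downstream positive) against the mean normalised read count of its peak (log axis), coloured by family; filled symbols pointing right are on the strand of the gene and open symbols pointing left on the other strand. Most sites cluster around the TSS, with 27 between 1 and 100 bp downstream, and the strongest peak, FBXO31, has its core 128 bp upstream.

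Among the conjugating enzymes, UBE2G1, an E2 that builds lysine-48 chains, had the strongest peak (chr17:4366547-4366947). In HttQ23 replicates 1, 2 and 3 it reached normalised read counts of 873, 378 and 1141, compared with 477, 281 and 1149 in the HttQ89 replicates in the same order. The groups overlapped, with replicate 2 lowest and replicate 3 highest in each. Its log2 fold change was −0.43 ± 0.53 (SE, limma, adjusted p = 0.823), which became +0.11 after median centring of the libraries. UBE2J2, an E2 anchored in the membrane of the endoplasmic reticulum, had 894, 670 and 800 in HttQ23 and 550, 366 and 905 in HttQ89. UBE2L3, which serves HECT and RBR ligases such as parkin, had 851, 426 and 699 in HttQ23 and 455, 245 and 772 in HttQ89. At both promoters HttQ89 replicates 1 and 2 were low or at the lower end, and HttQ89 replicate 3 stood within or above the HttQ23 range.

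UBE2K is known as an E2 that interacts with huntingtin. Its promoter had 329, 157 and 302 in HttQ23 and 142, 108 and 266 in HttQ89, or 263 ± 92.3 and 172 ± 83.3 (SD, n = 3 each). HttQ89 replicate 3 lay inside the HttQ23 range and the other two HttQ89 libraries lay under it. The log2 fold change was −0.64 ± 0.56 (SE, limma, adjusted p = 0.818), and the exact two-sided permutation test gave p = 0.2. UBE2V1, an inactive E2 variant that pairs with UBE2N to build lysine-63 chains, had 699, 532 and 658 in HttQ23 and 399, 305 and 704 in HttQ89. UBE2N itself was weaker, with 273, 137 and 209 in HttQ23 and 94.7, 97.8 and 266 in HttQ89.

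UBE2C is the E2 that starts ubiquitin chains on substrates of the anaphase-promoting complex. Its groups did not overlap, as at 1.57% of tested members and 4.27% of all tested peaks with HttQ89 lower. It had 70.0, 59.5 and 43.8 in HttQ23 and 29.9, 18.8 and 29.9 in HttQ89, so every HttQ89 library lay under every HttQ23 library. Its means were 57.8 ± 13.2 and 26.2 ± 6.40 (SD, n = 3 each). The log2 fold change was −1.12 ± 0.77 (SE, limma, adjusted p = 0.818), and the exact permutation test gave p = 0.1, the lowest value possible with 3 libraries a group. Groups of 3 that do not overlap always give this p, so it only restates the separation. UBE2S, which extends the chains that UBE2C starts, had 129, 80.7 and 130 in HttQ23 and 55.6, 41.5 and 164 in HttQ89, with overlapping groups.

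The ligases UBE3A, UBE3B and UBE3C had clear peaks. UBE3A, the HECT ligase lost in Angelman syndrome, had 213, 106 and 208 in HttQ23 and 125, 53.4 and 207 in HttQ89 (log2 fold change −0.59 ± 0.58, SE, limma, adjusted p = 0.818). UBE3C, a HECT ligase that works at the proteasome, had 565, 288 and 405 in HttQ23 and 232, 160 and 480 in HttQ89 (log2 fold change −0.63 ± 0.54, SE, limma, adjusted p = 0.818). In both the groups overlapped, with HttQ89 replicate 3 inside the HttQ23 range. UBE3B had 242, 196 and 433 in HttQ23 and 370, 204 and 443 in HttQ89 at its stronger peak, so its HttQ89 libraries lay within or just above the HttQ23 range. Its second peak, 806 bp from the TSS, had a mean of 12.2, and UBE3D had a mean of 19.1.

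FBXO31, the F-box protein known for cyclin D1 breakdown, had the strongest peak of all members (chr16:87392000-87392400), which ranked 7 among all promoter peaks. It had 2674, 1360 and 2713 in HttQ23 and 1618, 974 and 2641 in HttQ89. Replicate 2 was lowest in both groups, and the groups overlapped. The log2 fold change was −0.41 ± 0.57 (SE, limma, adjusted p = 0.825), against +0.12 after median centring. The TSS of MAP1LC3B, an autophagy gene, lies in the same peak, so the signal cannot be given to one of these genes. A second FBXO31 peak (chr16:87383557-87383957), over another annotated start, had a mean of 197 and likewise held an annotated TSS of MAP1LC3B.

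FBXO21 had 623, 328 and 489 in HttQ23 and 399, 253 and 530 in HttQ89, and FBXO28 had 525, 258 and 439 in HttQ23 and 277, 178 and 440 in HttQ89. FBXO7, a Parkinson's disease gene that acts in mitochondrial quality control, had 125, 150 and 136 in HttQ23 and 41.2, 91.9 and 196 in HttQ89. Its HttQ89 libraries thus spread on both sides of the HttQ23 libraries. FBXO5, an inhibitor of the anaphase-promoting complex, had 89.1, 27.6 and 55.2 in HttQ23 and 41.2, 32.6 and 79.6 in HttQ89. A weak peak of FBXO10 (chr9:37592423-37592823), which holds the TSS of TOMM5 as well, had 0, 6.37 and 4.38 in HttQ23 and 13.4, 14.8 and 20.8 in HttQ89. It was the one member with every HttQ89 library above every HttQ23 library, and its 0 kept it out of the limma fit. Its exact permutation p of 0.1 only restates that separation. That is 0.671% of the members, beside 0.769% of all peaks. FBXO2, which recognises glycoproteins in neurons, was weak, at 32.9, 43.5 and 44.6 in HttQ23 and 20.6, 31.6 and 41.6 in HttQ89.

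FBXL18 led the FBXL family, with 576, 249 and 919 in HttQ23 and 579, 277 and 861 in HttQ89, so that each replicate number had nearly the same level in both groups. FBXL5, the iron sensor that removes IRP2, had 2 peaks with means of 255 and 51.0. FBXL4, a mitochondrial F-box protein that restrains mitophagy, had 189, 105 and 93.7 in HttQ23 and 5.15, 65.2 and 119 in HttQ89. HttQ89 replicate 1, at 5.15, stood far under the other 5 libraries, and the groups overlapped. FBXL4 had the lowest log2 fold change of the tested members, −1.76 ± 0.68 (SE, limma, unadjusted p = 0.00935, adjusted p = 0.818), with an exact permutation p of 0.3. Without HttQ89 replicate 1 the value was −0.48, and with edgeR it was −1.03.

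FBXW5, an adaptor of cullin ligases, had 377, 318 and 311 in HttQ23 and 119, 185 and 339 in HttQ89 at its main peak (log2 fold change −0.77 ± 0.54, SE, limma, adjusted p = 0.818). Its 2 weaker peaks, with means of 54.7 and 39.2, both read 0 in HttQ89 replicate 1. FBXW11, a β-TrCP that recognises phosphorylated β-catenin and IκB, had 233, 133 and 142 in HttQ23 and 55.6, 81.0 and 165 in HttQ89. FBXW2 was the other tested member whose groups did not overlap, with 27.6, 35.0 and 36.8 in HttQ23 and 20.6, 21.7 and 24.4 in HttQ89. Its log2 fold change was −0.55 ± 0.82 (SE, limma, adjusted p = 0.828), with an exact permutation p of 0.1, which the separation fixes. limma sets its error by peak strength, so the narrow spread of this peak did not enter it.

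Among the deubiquitinases, USP31 was strongest, at 1152, 558 and 1115 in HttQ23 and 1354, 502 and 930 in HttQ89. Its groups lay on top of each other, and the log2 fold change was −0.06 ± 0.54 (SE, limma, adjusted p = 0.970), turning to +0.48 after median centring. USP24 had 824, 475 and 678 in HttQ23 and 485, 331 and 626 in HttQ89. USP9X, an X-linked regulator of neural development, had 366, 321 and 325 in HttQ23 and 160, 188 and 415 in HttQ89. USP22, the deubiquitinase of the SAGA complex, had 356, 356 and 292 in HttQ23 and 151, 193 and 418 in HttQ89. At USP9X and USP22 the HttQ23 libraries were close together, and the HttQ89 libraries lay below them in replicates 1 and 2 and above them in replicate 3.

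USP14, which trims chains at the proteasome, had 186, 89.2 and 98.9 in HttQ23 and 38.1, 64.2 and 198 in HttQ89. USP7, which stabilises MDM2 and p53, had 178, 132 and 83.2 in HttQ23 and 196, 78.1 and 108 in HttQ89, with interleaved groups. USP30, which opposes mitophagy at the mitochondrial surface, had 181, 70.1 and 117 in HttQ23 and 83.4, 51.4 and 110 in HttQ89. USP18, which removes the ubiquitin-like protein ISG15, had 65.8, 35.0 and 84.0 in HttQ23 and 36.0, 1.98 and 68.8 in HttQ89. Its single low value was in HttQ89 replicate 2, and its log2 fold change was −1.58 ± 0.80 (SE, limma, adjusted p = 0.818), compared with −0.21 without that library and −0.79 with edgeR.

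**Figure D3:**
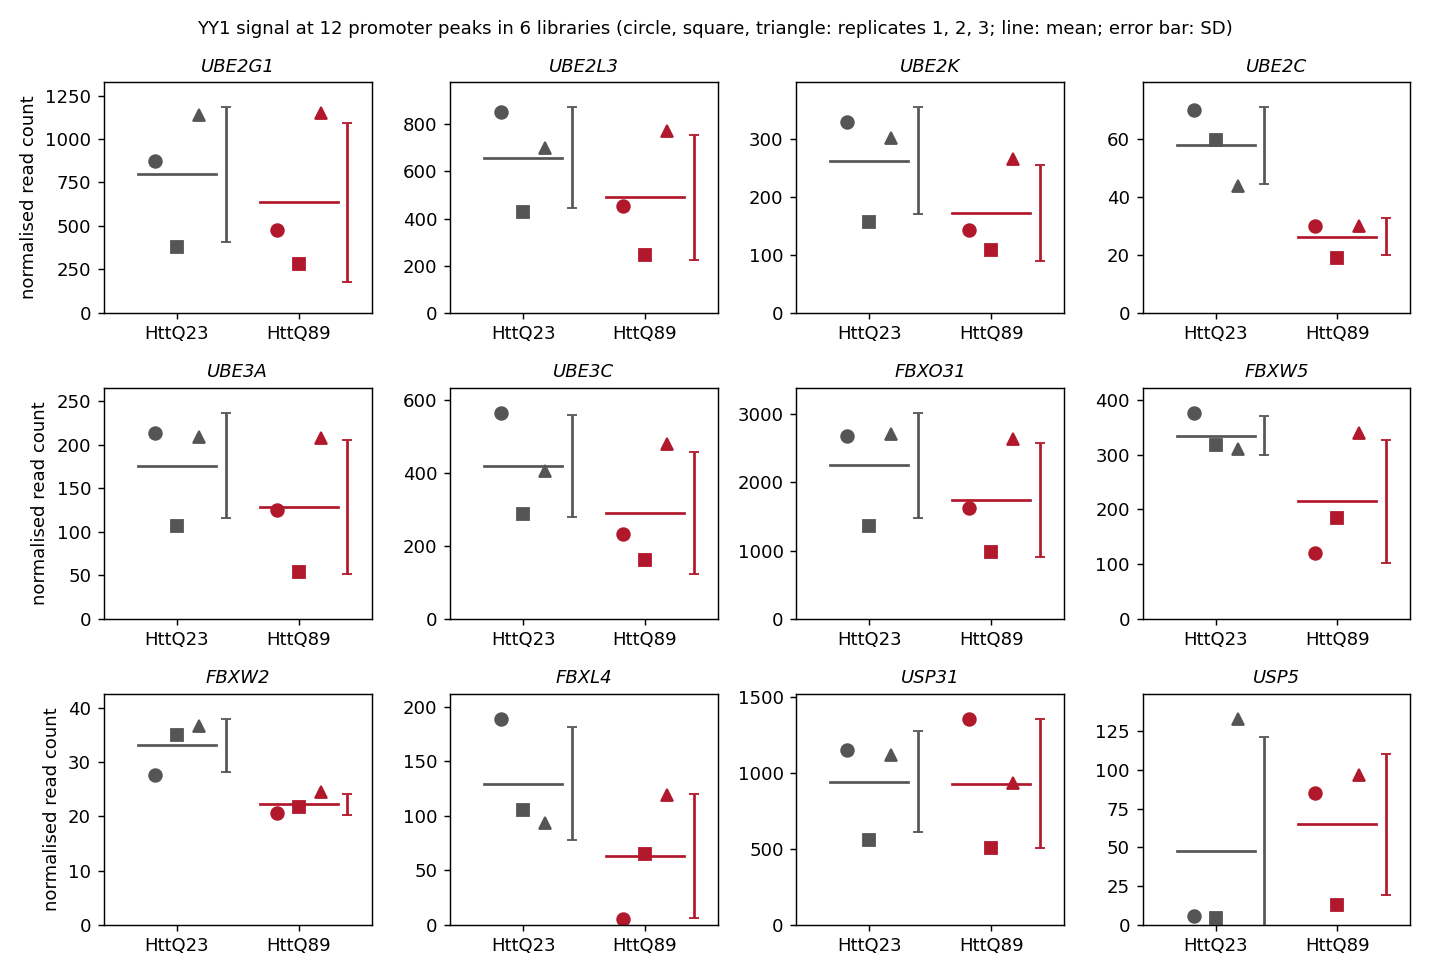
Normalised read count (linear axis from 0) at 12 promoter peaks in the HttQ23 and HttQ89 libraries; circles, squares and triangles are replicates 1, 2 and 3, lines are group means and error bars are SD (n = 3, cut at 0 for USP5). The groups are separate at UBE2C and FBXW2 and overlap at the other 10 peaks, where HttQ89 replicate 3 or another HttQ89 library reaches the HttQ23 range.

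The comparison of HttQ89 with HttQ23 was fitted over all peaks above 0 in all 6 libraries, which kept 14698 peaks and 127 of the 149 members. The other 22 members (14.8%, beside 23.3% of promoter peaks) read 0 in at least 1 library, 13 of them in HttQ89 replicate 1. Of the 127, 114 had a negative and 13 a positive log2 fold change. The members' median was −0.52, beside −0.50 over all tested peaks, a difference of under 0.1 on the log2 scale. Without HttQ89 replicate 3 these medians were −0.90 and −0.85, without HttQ89 replicate 2 they were −0.30 and −0.35, and without HttQ89 replicate 1 they were −0.33 and −0.24. The share of negative values was 89.8% in the members, 85.5% in all tested promoter peaks and 82.8% in all tested peaks. This direction depended on the scaling to depth, and after median centring the members' median was +0.021 and 44.9% were negative. Median centring moves every fold change by the same amount and brought the median of all tested peaks to +0.040. A value near 0 was thus fixed by it in advance. A lower yield of the immunoprecipitation and less YY1 per site cannot be told apart in such libraries.

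No member was called at an adjusted p under 0.05, and the lowest adjusted p was 0.818 (limma, Benjamini-Hochberg). Over all tested peaks 0% were called. At an unadjusted p under 0.05, 3 members were lower in HttQ89 (FBXL4, FBXO41 and USP18), where 4.02% of tested peaks were lower, and 0 members were higher, where 0.204% were higher. edgeR and DESeq2 on the recovered reads gave 0 members in either direction at the same unadjusted threshold. All HttQ89 libraries lay below all HttQ23 libraries at 2 members (UBE2C and FBXW2), against 4.27% of tested peaks, and above them at 0 tested members, against 0.537%. Each member share was thus near or under the background.

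By family the median log2 fold change was −0.54 for UBE2 (30 tested), −0.59 for UBE3 (5), −0.42 for FBXL (16), −0.42 for FBXO (24), −0.85 for FBXW (7) and −0.52 for USP (45). All 7 FBXW values were negative under the depth scaling, between −0.95 and −0.49. In the UBE2 family 29 of 30 values were negative, and the exception was a second, weak peak of UBE2J1 1435 bp from the TSS. In the USP family 38 of 45 were negative, and USP5 had the highest value of all tested members.

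**Figure D4:**
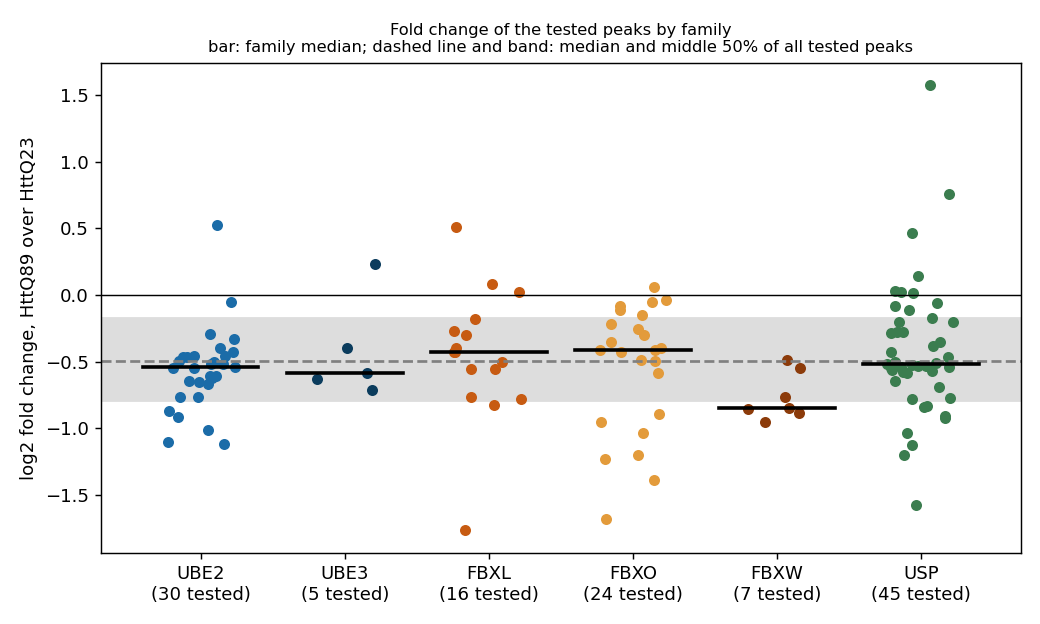
Log2 fold change of HttQ89 over HttQ23 for each tested peak by family, with the family median as a bar; the dashed line and the band are the median (−0.50) and the middle 50% of all tested peaks. The family medians of UBE2, UBE3, FBXL, FBXO and USP lie inside the band and that of FBXW (−0.85) lies just under it, with 7 peaks.

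The HttQ89 libraries did not move together. The HttQ23 mean of each peak was taken here on the log2(value + 1) scale. Relative to it, the median member stood at 0.543 times in HttQ89 replicate 1, 0.555 times in replicate 2 and 1.18 times in replicate 3. Of the 127 tested members, 107 were below the HttQ23 mean in replicate 1 and 121 in replicate 2, but 27 in replicate 3. The same figures over all tested peaks were 0.538, 0.612 and 1.21. The UBE2 median was 0.507 and 0.485 times in replicates 1 and 2, and the FBXW median was 0.414 and 0.555 times.

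Without HttQ89 replicate 3 the call changed, and 5 members passed an adjusted p under 0.05 (limma) with lower values in HttQ89, which is 3.94% of the 127 tested members. Over all tested peaks 514 of 14698 (3.5%) passed in the same fit, so the member share was near the background. These were FBXL4 (log2 fold change −2.62), FBXO41 (−2.81), the main UBE2J1 peak (−1.64), UBE2QL1 (−1.59) and USP39 (−1.57), with adjusted p between 0.0466 and 0.0498. UBE2J1, an E2 of the endoplasmic reticulum, had 331, 244 and 205 in HttQ23 and 65.9, 99.8 and 252 in HttQ89. USP39, an inactive family member of the spliceosome, had 205, 130 and 157 in HttQ23 and 55.6, 51.4 and 137 in HttQ89. In both, replicate 3 was the HttQ89 library that reached the HttQ23 range. FBXO41, a neuronal F-box protein, had 71.1, 41.4 and 44.6 in HttQ23 and 5.15, 7.91 and 76.0 in HttQ89 at its stronger peak. Its log2 fold change with all 6 libraries was −1.68 ± 0.82 (SE, limma, adjusted p = 0.818), and without HttQ89 replicate 1 it was −0.99.

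**Figure D5:**
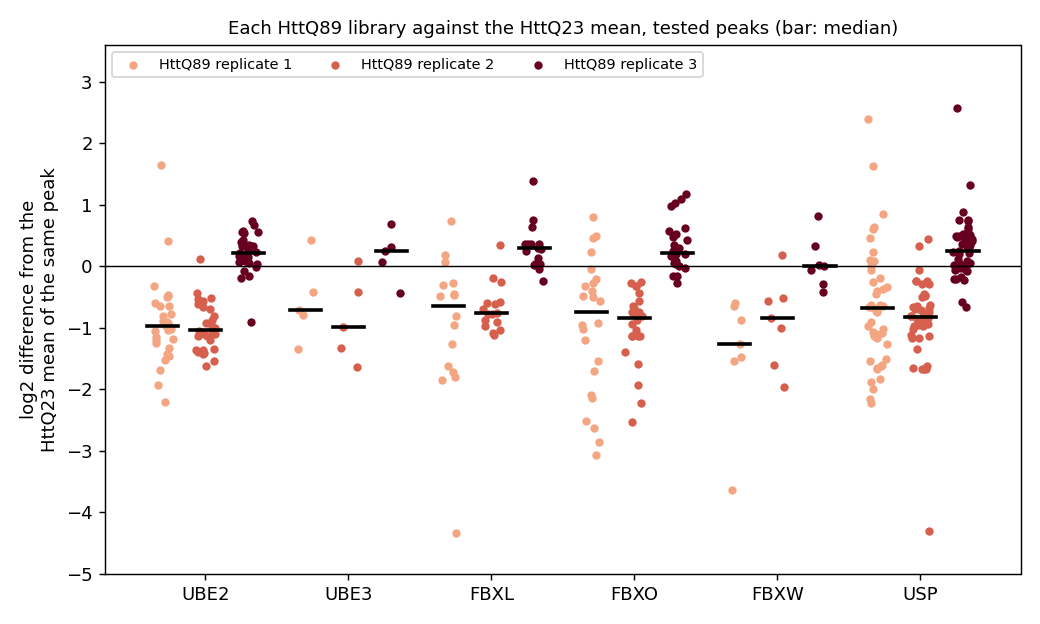
Log2 difference of each HttQ89 library from the HttQ23 mean of the same peak, both as log2(value + 1), for the 127 tested peaks by family. Bars are medians. HttQ89 replicates 1 and 2 lie mostly below 0 and HttQ89 replicate 3 mostly above it, with a median of 0.0079 in FBXW and at least 0.22 in the other families.

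A few members, chosen after their values were seen, followed a different order of libraries. USP5, which recycles free ubiquitin chains, had 5.30, 4.25 and 133 in HttQ23 and 85.4, 12.8 and 96.8 in HttQ89, a range of 31.3 times between the lowest and the highest library. FBXL19, whose peak holds 2 copies of AAGATGGCG, had 123, 55.2 and 707 in HttQ23 and 282, 113 and 444 in HttQ89. Both were high in HttQ23 replicate 3 and in HttQ89 replicates 1 and 3. USP54 (6.36, 24.4 and 57.8 in HttQ23 and 68.0, 17.8 and 39.8 in HttQ89) and FBXO38-DT (43.5, 25.5 and 183 in HttQ23 and 104, 11.9 and 135 in HttQ89) were likewise low in HttQ23 replicates 1 and 2. The log2 fold change was +1.57 ± 0.82 for USP5 (SE, limma, adjusted p = 0.818) and +0.51 ± 0.56 for FBXL19 (adjusted p = 0.818), the latter turning to −0.080 with edgeR. The USP5 value was +0.44 with edgeR, +0.75 without HttQ23 replicate 2 and +3.09 without HttQ23 replicate 3.

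These peaks were low in GC for the group, at 66.8% for USP5, 62.6% for FBXL19 and FBXO38-DT and 61.6% for USP54, beside a median of 72.8% over the members. Over the 127 tested members the Spearman correlation between GC and the deviation of a library from the mean of the peak reached 0.28, 0.32 and −0.39 for the HttQ23 libraries, replicates 1 to 3, compared with −0.25, 0.14 and −0.22 for the HttQ89 libraries. Peaks of one library share its depth and yield, so these values are descriptions. Split by GC into 3 groups of 42, 43 and 42 peaks, the members had a median log2 fold change of −0.29 at the lowest GC, −0.58 in between and −0.52 at the highest GC. The part of GC in the fold changes was not tested.

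Some members cannot be given to one gene. The TSS of another coding gene lay inside 18 of the 149 peaks (12.1%, and 9.20% over all promoter peaks). FBXO45 shares its peak with WDR53, FBXL8 with TRADD, and UBE2D4 with URGCP. Under noncoding symbols lay the promoters of FBXO3, FBXO34, FBXO38, USP46 and USP2. The peak that covers the FBXO3 start had a mean of 296 and an AAGATGGCG. The TSS itself lay inside 119 of the 149 peaks (79.9%), compared with 72.8% of promoter peaks.

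Of 180 coding genes that RefSeq lists with these prefixes, 117 (65.0%) had a member peak. The shares were 29 of 36 for UBE2, 4 of 4 for UBE3, 13 of 17 for FBXL, 24 of 36 for FBXO, 6 of 10 for FBXW and 41 of 77 for USP. Without the near-identical USP17L copies the USP share was 41 of 52 (78.8%). For 17 of the other genes the TSS lay inside a peak that the table gives to another symbol. They included FBXW7, the F-box protein that removes cyclin E and MYC (mean 110, under MIR4453), USP15 (354, under MIR6125) and UBE2M, the E2 for NEDD8 (263, under MZF1-AS1). USP15 had 413, 241 and 483 in HttQ23 and 302, 209 and 474 in HttQ89, and the peaks over FBXW7, USP15 and UBE2M entered no member count.

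Of the 149 members 145 lay within 1000 bp of the TSS. The members nearest to the 2000 bp limit were the second UBE2J1 peak at 1435 bp (mean 10.7), a FBXO43 peak at 1299 bp (6.87) and a FBXW5 peak at 1257 bp (39.2). Just outside the 2000 bp limit were peaks of FBXO38 at −2202 bp (8.55), FBXW4 at −2267 bp (7.59) and UBE2G1 at −2343 bp (7.81).

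The rest of the pathway was read from 6 lists of 96 genes, taking for each gene the promoter peak with the highest mean. Of these, 80 had a promoter peak and 73 were tested, with 61 negative and 12 positive log2 fold changes and a median of −0.45, beside −0.50 over all tested peaks. No gene was called (limma, lowest adjusted p = 0.818), and 0 passed an unadjusted p under 0.05, beside 4.02% lower and 0.204% higher over all tested peaks. Median signal over the 6 libraries was 191 for the cullin-RING core, 142 for ubiquitin and E1 genes, 112 for other HECT ligases, 94.0 for other deubiquitinases and 77.6 for the COP9 signalosome. Over all lists it was 113, beside 118 for the strongest peak of each member gene. CUL2, a cullin scaffold, had 613, 288 and 485 in HttQ23 and 350, 203 and 576 in HttQ89. HERC1, a giant HECT ligase, had 140, 73.3 and 77.9 in HttQ23 and 28.8, 31.6 and 70.6 in HttQ89, and MPND had 231, 200 and 162 in HttQ23 and 89.6, 126 and 156 in HttQ89. HERC1 and MPND were the 2 of 73 tested list genes whose HttQ89 libraries all lay below HttQ23, beside 4.27% of all tested peaks.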

How the data were processed

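YY1 chromatin immunoprecipitation libraries from SK-N-MC cells were sequenced in pairs of 150 nt, with 3 HttQ23, 3 HttQ89 and 3 input libraries; the inputs entered no fit. Per the submitters' processing notes and the methods of the study, the authors used FastQC 0.11.8, Cutadapt 3.7, Bowtie2 2.4.1 (GRCh38.p14), Sambamba for unique reads, bedtools 2.29.2 for blacklisted regions, MACS3 3.0.1 against input and ChIPseeker 1.38.0. The sources used here do not give whether peak calling was per library or pooled. The values deposited by the authors are a signal, namely DiffBind read counts in each peak divided by a depth factor, and this scaling keeps differences in immunoprecipitation yield between libraries.

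All values were whole multiples of 1 step per library (100% within 0.1 reads), which gave 1943927, 1415890 and 2089917 recovered reads for HttQ23 (replicates 1 to 3) and 927910, 1012558 and 2344649 for HttQ89. Peaks at 0 made up between 2.99% and 8.82% of a library, except 22.5% in HttQ89 replicate 1. Weak peaks rest on few reads, so their values are the least precise.

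Peaks above 0 in all 6 libraries (14698) were tested with limma 3.58.1 (R 4.3.3, trend, two-sided) on log2(value + 1), which understates changes of weak peaks, with Benjamini-Hochberg adjustment over all of them at 0.05. limma estimated no variance of single peaks beyond the trend. Its standard errors follow peak strength. Exact permutation tests were two-sided, and their p-values reflect only how these libraries spread. Alternatives were edgeR 4.0.16 and DESeq2 1.42.0 on recovered reads, other scalings, filters, pseudocounts and member rules, and each library left out. Counts were simulated for the 14698 peaks at a dispersion of 0.3 (0.290 in these libraries), with 50 peaks changed at each fold and direction. There limma recovered 24% of 4-fold and 86% of 16-fold decreases, and 16% and 96% of such increases. The simulated peaks varied independently and no library was shifted as a whole, so these shares need not hold in the real libraries.

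TSS positions came from GENCODE v44, where all 23002 distances matched within 1 bp, motif sequence from GRCh38, and the coding genes with these prefixes from RefSeq. The members and lists were chosen with earlier results of these data known. Named genes were, per family, the 3 strongest peaks, those with non-overlapping groups and the lowest p, the strongest with a 0, genes with several peaks and a list of known pathway genes; only part of these are named, and a few are not reported here. FBXL4, USP5, USP18, USP21, USP54, UBE2V1, UBE2QL1, FBXO38-DT and the genes that share a peak or list with a member were chosen after their values were seen, as was the restriction to coding symbols.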

Additional observations from a re-analysis of the deposited data

How the results depend on the processing

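The count of 0 called members held under every alternative except leaving out HttQ89 replicate 3, where it was 5 (range 0 to 5 over the libraries left out) and the whole table had 514 lower peaks (0 to 514). With the replicate number as a block 1 peak of the whole table passed and 0 members, with 4 members lower and 1 higher (USP5) at an unadjusted p under 0.05. Same-numbered libraries deviated together only in part (correlations 0.041, 0.39 and 0.15). Each HttQ23 library correlated best with the HttQ89 library of its number, but HttQ89 replicate 1 correlated best with HttQ23 replicate 3 (0.13). Deviations from a mean of 3 libraries depend on each other, so these values do not settle whether the numbers pair the samples. The 3 members lower at an unadjusted p under 0.05 became 0 with no filter, median centring, edgeR or DESeq2 and 1 with a mean of at least 20, a pseudocount of 5 or TMM (0 to 49 over the libraries left out), and the 0 higher ranged from 0 to 2. Over all tested peaks that count was 591 lower and 30 higher, 94 and 182 with median centring, 110 and 132 with TMM, 117 and 18 with edgeR, 85 and 183 with DESeq2, 345 and 22 with no filter, 444 and 1 with a mean of at least 20, 633 and 52 with the block, and 4516 and 14 without HttQ89 replicate 3. The 49 lower of 127 tested members came without HttQ89 replicate 3, beside 4516 of 14698 peaks. The 2 higher of 127 came without HttQ23 replicate 3, beside 157 of 14698 peaks. Negative fold changes made up 44.9% of members with median centring, 45.7% with DESeq2 and 55.1% with TMM. Members with HttQ89 entirely below HttQ23 numbered 8 with median centring (6.30%, beside 3.25% of all tested peaks) and 6 with TMM (4.72% and 3.42%). Over the libraries left out they numbered 2 to 73, with 13 without HttQ23 replicate 2 (10.2% and 10.0%), 15 without HttQ23 replicate 3 (11.8% and 15.0%) and 73 without HttQ89 replicate 3 (57.5% and 48.7%). Entirely above lay 1 with no filter (0.671% and 0.769%), 1 with TMM (0.787% and 2.82%) and 0 to 1 over the libraries left out. It was 1 without HttQ23 replicate 3 (0.787% and 3.61%) and without HttQ89 replicate 2 (0.787% and 1.95%). Median centring moved every log2 fold change by the same amount, so a turn of sign there is not particular to the peaks named next. The fold change turned at FBXO31 (+0.12 with median centring, +0.081 with TMM, +0.10 with DESeq2), UBE2G1 (+0.11, +0.066 and +0.031), USP31 (+0.48, +0.44 and +0.64) and FBXL19 (−0.080 with edgeR). Over the libraries left out it ranged from −0.98 to 0.036 at UBE2G1, from −0.40 to 0.33 at USP31, from −0.29 to 1.54 at FBXL19, from −2.62 to −0.48 at FBXL4, from −2.81 to −0.99 at FBXO41, from −2.49 to −0.21 at USP18 and from 0.75 to 3.09 at USP5. The members' median ranged from −0.90 to −0.30 and that of all tested peaks from −0.85 to −0.24. The causes were not tested. Limiting members to 1000 bp, to the strongest peak of each gene or to coding symbols (the last chosen after seeing the data) changed no call.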
